A study of Rattus norvegicus with 8 samples.

Results

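Mitochondrial ribosomal protein genes were followed in the periodontal ligament, the connective tissue that holds the tooth root in its socket, before and after the teeth of young rats meet in the bite. They were taken by name from the deposited count table, as symbols starting with Mrpl (large subunit) or Mrps (small subunit) and a digit, which gave 69 of 17337 genes. Of these, 66 had 10 or more counts in at least 4 of the 8 libraries and were kept, 38 of 41 of the large subunit and 28 of 28 of the small subunit. Left out were Mrpl30, at 0 counts in every library, and Mrpl36 and Mrpl53, which had at most 6 counts in any library. All 66 also passed the expression filter of the test across 10472 genes. The count table writes 3 further large-subunit genes in lower case (mrpl9, mrpl11 and mrpl24). These fell outside the naming rule and are described apart.

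The libraries were made from cervical ligament of untreated, normally grown Rattus norvegicus, captured by laser micro-dissection, with total RNA amplified by a low-input kit (SMARTer Ultra Low). Per the labels, 4 animals were sampled at 18 days of age (P18) and 4 at 28 days (P28), and the bite is established between these ages. The labels used here name neither strain nor sex. Total counts ran from 5252693 (P28 replicate 4) to 26645656 (P18 replicate 2). P28 replicate 4 stood apart, with a correlation of log2 CPM across genes of 0.750 to 0.766 with the other P28 libraries, against 0.813 to 0.827 among those. To a lesser degree P18 replicate 1 did too, at 0.780 to 0.789 with the other P18 libraries, against 0.816 to 0.835 among those. The ligament genes Postn, Col1a1, Col3a1 and Tnmd were present in all libraries; Aspn was at or near 0 in all 8.

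Mitochondria carry ribosomes of their own, which translate the few messages of the mitochondrial genome into core subunits of the respiratory chain and ATP synthase. Their ribosomal RNA comes from the mitochondrial genome, but every protein is encoded in the nucleus, made in the cytosol and imported. The small subunit reads the message and the large subunit joins amino acids. Some of the proteins have counterparts in bacterial ribosomes and others are particular to mitochondria.

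No mitoribosomal gene of either subunit passed the test over all genes. In all, 0 of 38 in the large and 0 of 28 in the small subunit had an edgeR quasi-likelihood adjusted p under 0.05, where 0.936% of the 10472 genes did (0.516% higher and 0.42% lower at P28). An unadjusted p under 0.05 was found for 5 large-subunit genes, all higher at P28, and for 1 higher and 1 lower small-subunit gene. Over all genes those shares were 7.45% higher and 7.1% lower. The DESeq2 Wald test and limma with voom each called 1 of the 66, Mrpl54 (over all genes, 5.35% and 2.93% were called). With 4 animals per age, a gene that was not called is not shown to be equal at both ages.

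Levels are given as CPM (counts scaled to a common library size, with TMM factors, which set the bulk of genes equal) for replicates 1 to 4, and log2 fold changes are P28 over P18 ± SE. The median log2 fold change was 0.15 over the large-subunit genes and 0.16 over the small-subunit genes, beside 0.01 over all genes tested. Of the 66 genes 43 lay above 0 and 23 below (25 and 13 in the large subunit, 18 and 10 in the small). Without P28 replicate 4 the median of the large subunit was 0.26 and that of the small subunit 0.17; without P18 replicate 4 that of the small subunit was 0.24. These values depend on the scaling. On library totals, without TMM factors, the median of all genes was -0.13, that of the large subunit 0.0070 and that of the small subunit 0.026, so that both subunits lay above the median of all genes by about as much as with TMM (by 0.13 and 0.15 without, 0.14 and 0.15 with). On that scale 35 of the 66 lay above 0 and 31 below, and the calls over all genes split into 40 higher and 69 lower in place of 54 and 44.

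**Figure D1:**
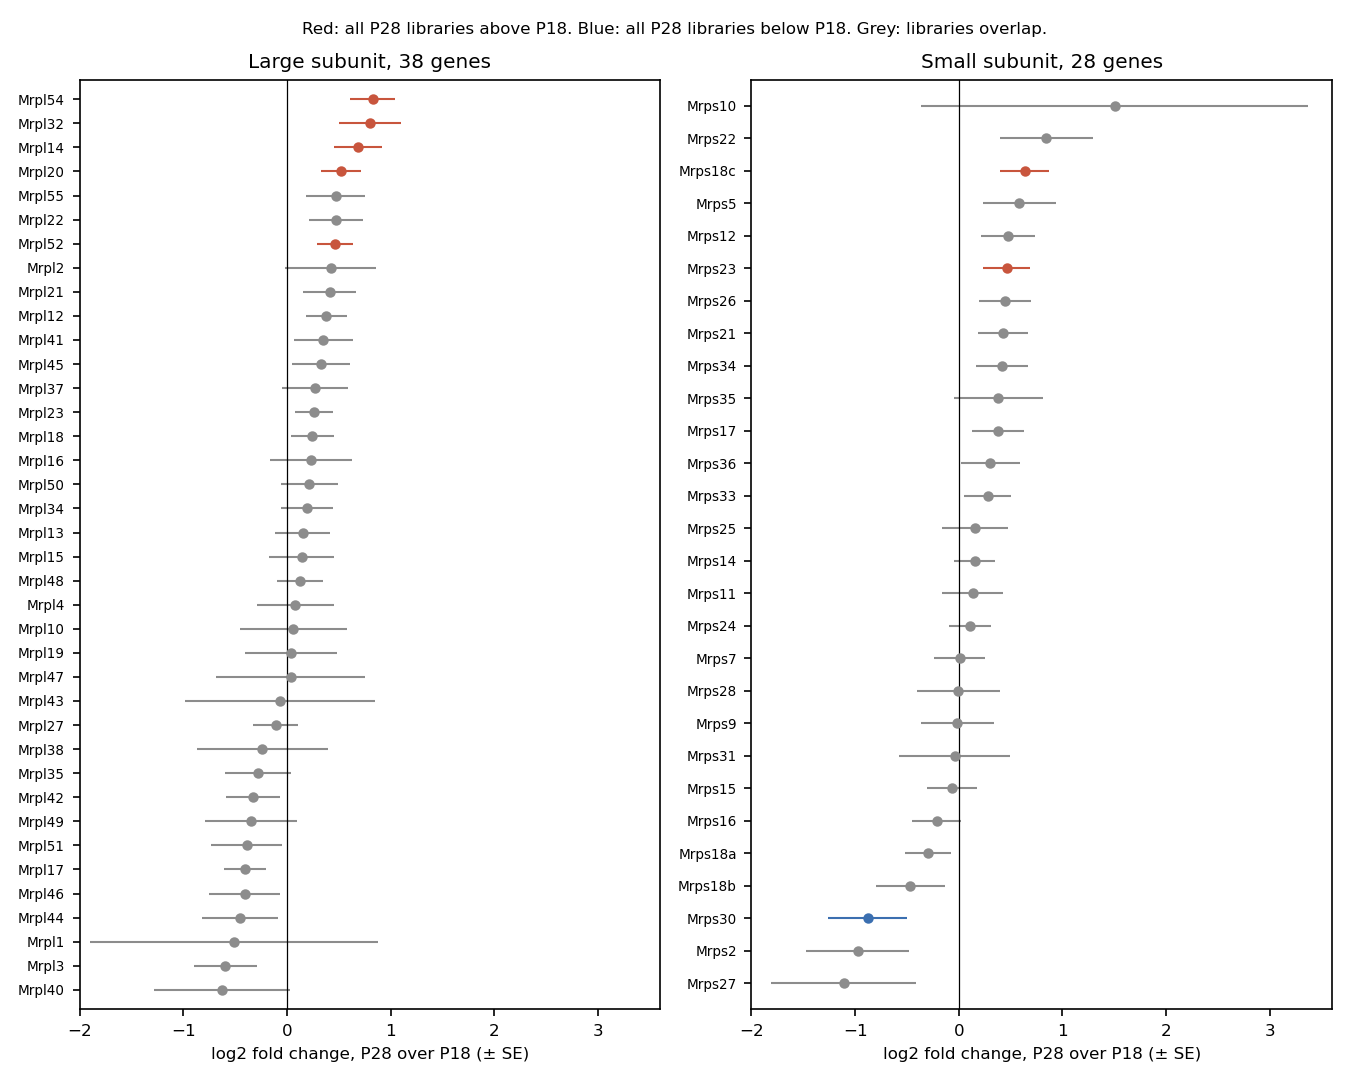
Log2 fold change (x axis, P28 over P18, with SE as bars) of each of the 38 large-subunit (left) and 28 small-subunit genes (right), each row being 1 gene. Large-subunit genes lie between -0.63 and 0.83; Mrps10, Mrpl1 and Mrpl43 have the widest bars, and the 8 coloured genes are those whose libraries do not overlap between the ages.

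Most measured log2 fold changes were small. They lay within 0.5 of 0 for 31 of 38 large-subunit genes (81.6%) and 21 of 28 small-subunit genes (75%), against 61.2% of 4933 other genes of like expression (within the 10th to 90th percentile of the mean log2 CPM of the 66). Values beyond 1 in size were seen in 0 large-subunit and 2 small-subunit genes, and in 10.4% of those other genes. The spread between animals was also smaller. Within an age, the SD of log2 CPM had a median of 0.38 over large-subunit genes and 0.33 over small-subunit genes, against 0.53 over the other genes. Whether mitoribosomal genes differ from other genes in these shares was not tested.

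With TMM factors, though not on library totals, the summed level of the small subunit separated the ages, with P28 above. It was 1935, 1874, 1818 and 1719.8 CPM in P18 replicates 1 to 4 and 1956, 1978, 2163 and 2084 CPM in P28 replicates 1 to 4. The gap between the ages was narrow, from 1935 CPM in the highest P18 library to 1956 CPM in the lowest P28 library. For the large subunit the sums were 3117, 2903, 2834 and 2812 CPM in the P18 animals and 3426, 3158, 3633 and 3070.1 CPM in the P28 animals, where P28 replicate 4 lay below P18 replicate 1. As means, the large subunit stood at 2917 ± 139 CPM in the P18 animals and 3322 ± 257 CPM in the P28 animals (SD, n = 4 per age; ratio 1.14), and the small subunit at 1837 ± 91.5 and 2045 ± 96.3 CPM (ratio 1.11).

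Without TMM factors these ratios were 1.03 and 1.01, and the small-subunit sums ran from 1805 to 1971 CPM in the P18 animals and from 1871 to 2085 CPM in the P28 animals, with overlap. As a share of all counts, both subunits together made up 0.514, 0.498, 0.503 and 0.476 percent at P18 and 0.515, 0.541, 0.514 and 0.472 percent at P28, and the ages overlapped. The large subunit exceeded the small by a ratio of 1.55 to 1.63 over the P18 libraries and of 1.47 to 1.75 over the P28 libraries. That ratio was lowest in P28 replicate 4, and its mean differed between the ages by less than the SD at P28 (1.59 ± 0.041 and 1.63 ± 0.12).

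**Figure D2:**
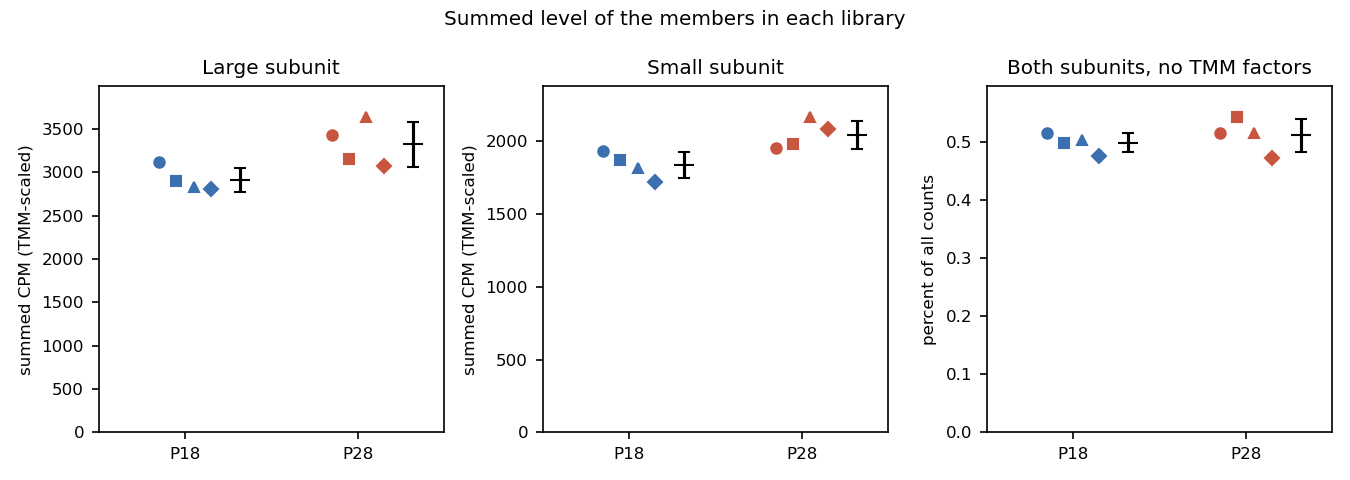
Summed CPM of the large-subunit genes (left) and small-subunit genes (middle) and the percent of all counts held by both (right), by age; symbols are replicates 1 to 4 (circle, square, triangle, diamond), and the black marks are the mean ± SD. The small-subunit sums of the ages do not overlap, and the shares of all counts, 0.472 to 0.541 percent, do.

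Among markers of the cells a capture could hold, only the ligament list of the lists given here separated the ages by its sum with TMM factors. The summed CPM of 6 ligament fibroblast markers ran from 82488 to 126836 at P18 and from 128343 to 176774 at P28, with a narrow gap. This gap depends on the scaling. The TMM factor was 1.02 for P18 replicate 1 (126836 CPM) and 0.916 for P28 replicate 4 (137442 CPM). With these factors taken out, P28 replicate 4 lies below P18 replicate 1 and the ages overlap. For 6 osteoblast and cementoblast markers the sums ran from 3727 to 5739 and from 5582 to 10172 CPM. The 5 cycling-cell markers summed to 260.0 to 431 CPM in the P18 animals and 168 to 274 CPM in the P28 animals. Of 7 osteoclast markers 5 were in the table, with sums of 1451 to 1707 CPM in the P18 animals and 1024 to 7813 CPM in the P28 animals. Enamel organ markers (5 of 5 with counts) varied most between animals, with sums of 15.1 to 4790 CPM in the P18 animals and 5.62 to 638 CPM in the P28 animals. For 4 epithelial markers the sums reached 3620 CPM in P28 replicate 2 and 20.4 to 989 CPM in the other 7 libraries. Erythroid markers (6 of 7 in the table) summed to 2423 to 8088 CPM in the P18 animals and 603 to 4066 CPM in the P28 animals. All the markers in these sums had counts. Within the ligament list the summed level and a single gene went apart, since Tnmd fell by 2.43 on the log2 scale (edgeR adjusted p = 0.00608), a call kept without any 1 library (adjusted p from 0.00229 to 0.0366). In the other lists, Bglap (osteoblast) rose by 2.21 on the log2 scale (edgeR adjusted p = 0.0264) and Acp5 (osteoclast) by 3.67 (edgeR adjusted p = 0.0494). Limma with voom called Bglap (adjusted p = 0.00992) but not Acp5 (adjusted p = 0.0711). Without P18 replicate 2 both lost the edgeR call (edgeR adjusted p = 0.0979 and 0.173). Among enamel organ markers, whose sums overlapped, Ambn was called lower at P28, at -8.51 on the log2 scale (edgeR adjusted p = 0.0204). Amtn was called lower too, at -10.01 (edgeR adjusted p = 0.0188). Limma with voom called neither Ambn (adjusted p = 0.557) nor Amtn (adjusted p = 0.266). Without P28 replicate 1 these enamel calls were lost in edgeR (adjusted p = 0.0917 for Ambn, 0.0857 for Amtn). The 5 markers of skeletal muscle, a tissue rich in mitochondria, summed to 2.94 to 39.4 CPM over the 8 libraries. The part of these cell types in the mitoribosomal values was not tested. In such bulk captures fewer cells of a type and less RNA per cell cannot be told apart.

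For 8 of the 66 genes all libraries of 1 age lay beyond those of the other. In either direction this held for 13.2% of large-subunit and 10.7% of small-subunit genes, near the 11.5% of the 4933 other genes of like expression. By direction, 7 lay higher at P28 (10.6%, where 4.91% of all genes tested were so) and 1 lower (1.52%, against 5.54%). The 7 were Mrpl54, Mrpl14, Mrpl52, Mrpl20 and Mrpl32 of the large subunit and Mrps18c and Mrps23 of the small, and the lower gene was Mrps30. Without P28 replicate 4 the same 7 and 1 genes did not overlap (all genes, 9.31% and 9.01%). On library totals without TMM factors 5 lay higher and 4 lower (all genes, 3.58% and 7.33%). Mrpl32 and Mrps18c then overlapped, and Mrpl17, Mrpl42 and Mrps18a joined Mrps30. With TMM factors, 13 of 74 nuclear genes of the respiratory chain and ATP synthase lay higher without overlap and 2 lower. Of 77 cytosolic ribosomal protein genes 7 lay higher and 0 lower. Whether the mitoribosomal genes differ from these or from all genes in such shares was not tested.

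Mrpl54, a large-subunit protein particular to mitochondria, had the lowest p of the 66. It lay at 199, 179, 184 and 135 CPM in P18 replicates 1 to 4 and at 338, 271, 390.3 and 234 CPM in P28 replicates 1 to 4. P28 replicate 3 was highest and replicate 4 lowest among the older animals, and all 4 stood above every younger animal. The log2 fold change was 0.83 ± 0.21 (edgeR adjusted p = 0.0958). It was called without P28 replicate 4 (0.94, edgeR adjusted p = 0.0480), by the DESeq2 Wald test (0.83, adjusted p = 0.0120) and by limma with voom and quality weights (0.89, adjusted p = 0.0312), while over the 7 other fits that left out 1 library the adjusted p was up to 0.248.

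Mrpl14 is the counterpart of bacterial L14 and lies at the face of the large subunit that meets the small one. Its levels were 87.1, 88.2, 75.4 and 76.9 CPM in the P18 animals and 112, 99.6, 184 and 132 CPM in the P28 animals, close together in the younger animals and highest in P28 replicate 3 (log2 fold change 0.69 ± 0.24, edgeR adjusted p = 0.191). Mrpl32, whose precursor is trimmed by the m-AAA protease of the inner membrane, lay at 50.8, 31.7, 54.1 and 45.3 CPM and 65.0, 54.9, 98.9 and 98.2 CPM. Its lowest P28 value, in replicate 2, was close to the highest P18 value, in replicate 3, and the log2 fold change was 0.80 ± 0.30 (edgeR adjusted p = 0.232).

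Mrpl52, a mitochondria-specific protein, had the narrowest ranges of these genes. It lay at 126, 121, 129.9 and 120.3 CPM in the P18 animals and 164, 175, 174 and 172 CPM in the P28 animals, so that the ages were separated by more than the whole range within either age. Its log2 fold change was 0.46 ± 0.17 (edgeR adjusted p = 0.229), and 0.44 to 0.49 leaving out 1 library. Mrpl20, the counterpart of bacterial L20, lay at 153, 152, 129 and 136 CPM and 229, 156, 229 and 204 CPM, with P28 replicate 2 just above the P18 libraries (log2 fold change 0.52 ± 0.19, edgeR adjusted p = 0.231).

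In the small subunit, Mrps18c, the counterpart of bacterial S18, lay at 66.6, 64.5, 73.6 and 82.7 CPM in the P18 animals and 98.6, 117, 145 and 84.9 CPM in the P28 animals (log2 fold change 0.63 ± 0.23, edgeR adjusted p = 0.231). Replicate 4 of each age, the highest at P18 and the lowest at P28, nearly met. Mrps23, particular to mitochondria, lay at 86.6, 87.8, 64.4 and 87.4 CPM and 107, 92.0, 107 and 143 CPM, with P18 replicate 3 well below the other 3 younger animals (log2 fold change 0.46 ± 0.23, edgeR adjusted p = 0.374).

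Mrps30 was the gene with no overlap in the other direction. It carries a small-subunit name, but structures of the mammalian mitoribosome place the protein in the large subunit. Its levels were 55.4, 61.2, 69.2 and 43.9 CPM in the P18 animals and 41.3, 30.7, 39.6 and 12.7 CPM in the P28 animals, lowest in P28 replicate 4. The log2 fold change was -0.88 ± 0.38 (edgeR adjusted p = 0.315), and -0.62 without P28 replicate 4. Mrps18a, another protein with a small-subunit name found in the large subunit, lay at 144, 154, 144 and 120.2 and 129, 78.2, 138 and 113 CPM (log2 fold change -0.30 ± 0.22; -0.15 without P28 replicate 2). Counting both with the large subunit gave medians of 0.13 for the large and 0.22 for the small subunit.

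**Figure D3:**
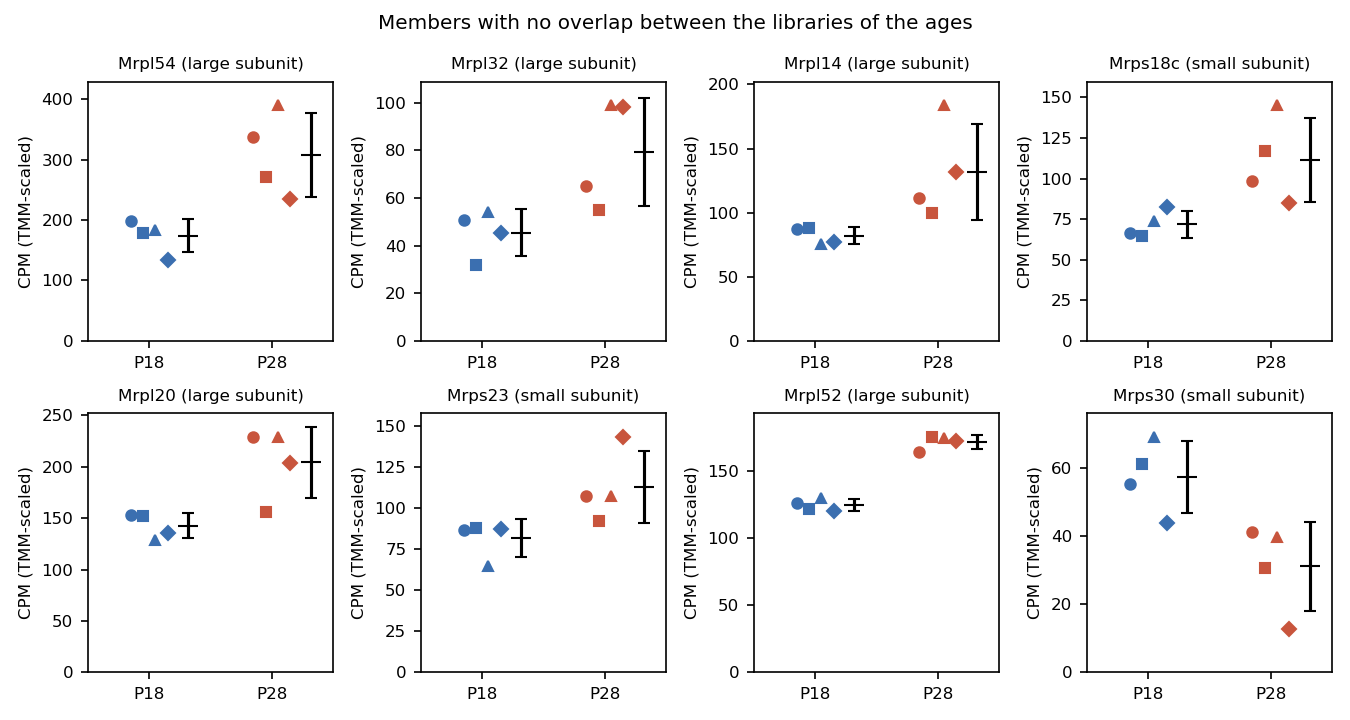
CPM (y axis) of the 8 genes with no overlap between the ages, by age; symbols are replicates 1 to 4 (circle, square, triangle, diamond) and the black marks are the mean ± SD. Mrpl52 is tight within each age, Mrpl54 spreads from 234 to 390.3 CPM in the P28 animals, and Mrps30 alone lies lower at P28.

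The promoters of these 8 genes are shown because their genes separated the ages, so that a reader can compare what lies before their starts. The sequences are the 150 bases before the gene start in RefSeq (build GRCr8), 5′ to 3′ on the strand of the gene. Capitals mark matches, on either strand, to the letters of 3 binding motifs known from promoters of nuclear genes for mitochondria. These are the NRF1 motif (a palindrome, spelled by the capitals of the Mrpl32 line), CCGGAAG for the ETS family, to which GABP belongs (CTTCCGG on the other strand), and the YY1 motif, of which none lay in these windows. The windows are chr7:9103375-9103524 on the forward strand (Mrpl54), chr9:22811234-22811383 on the reverse strand (Mrpl14), chr17:55260501-55260650 on the forward strand (Mrpl32), chr15:31852786-31852935 on the forward strand (Mrpl52), chr5:171691048-171691197 on the forward strand (Mrpl20), chr14:9122907-9123056 on the reverse strand (Mrps18c), chr10:73496088-73496237 on the forward strand (Mrps23) and chr2:52195905-52196054 on the reverse strand (Mrps30).
Mrpl54: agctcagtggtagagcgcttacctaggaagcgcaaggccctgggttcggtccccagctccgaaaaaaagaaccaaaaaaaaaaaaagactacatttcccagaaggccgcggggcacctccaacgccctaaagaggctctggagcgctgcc
Mrpl14: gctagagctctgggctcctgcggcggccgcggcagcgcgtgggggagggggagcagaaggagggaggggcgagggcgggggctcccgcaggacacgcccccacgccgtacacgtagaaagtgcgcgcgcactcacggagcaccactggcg
Mrpl32: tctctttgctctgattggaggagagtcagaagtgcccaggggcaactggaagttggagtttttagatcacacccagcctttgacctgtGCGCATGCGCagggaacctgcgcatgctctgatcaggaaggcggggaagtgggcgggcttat
Mrpl52: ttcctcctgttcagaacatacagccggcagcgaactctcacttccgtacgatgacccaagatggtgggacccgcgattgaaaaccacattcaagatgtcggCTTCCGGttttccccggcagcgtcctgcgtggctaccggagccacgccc
Mrpl20: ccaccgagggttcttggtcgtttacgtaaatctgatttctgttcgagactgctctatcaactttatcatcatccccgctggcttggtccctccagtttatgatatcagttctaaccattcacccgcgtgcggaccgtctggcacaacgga
Mrps18c: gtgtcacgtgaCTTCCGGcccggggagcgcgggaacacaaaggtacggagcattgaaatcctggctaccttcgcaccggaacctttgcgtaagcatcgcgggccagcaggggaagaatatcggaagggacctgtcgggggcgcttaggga
Mrps23: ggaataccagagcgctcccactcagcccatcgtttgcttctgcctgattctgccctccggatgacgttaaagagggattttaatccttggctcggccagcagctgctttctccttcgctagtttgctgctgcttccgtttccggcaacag
Mrps30: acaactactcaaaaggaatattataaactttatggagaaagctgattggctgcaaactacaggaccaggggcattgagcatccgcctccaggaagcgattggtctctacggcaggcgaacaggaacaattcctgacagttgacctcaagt

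In these windows Mrpl32 held the NRF1 letters and Mrpl52 and Mrps18c the ETS letters, and the 5 others held no match; the ETS match of Mrpl20 lay after its start. A YY1 match of Mrps30 lay after its start, within chr2:52195866-52195895 on the reverse strand, shown here as 30 bases because Mrps30 was the lower gene. Its capitals spell the YY1 motif searched, in which the third letter may be any base.
Mrps30: cggaggacaAAGATGGCGGCtgccaggtat

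Over the whole promoter window of the RefSeq table (300 bases, 250 before to 50 after the start), 52 of the 66 genes were matched, 51 by symbol and 1 by a synonym. The ETS letters were in 15 of the 52 (28.8%), the YY1 letters in 9 (17.3%) and the NRF1 letters in 4 (7.69%). Among all 33469 promoters of the table these shares were 8.75%, 1.06% and 0.852%, and among the 7998 tested genes matched by symbol 18.1%, 3.05% and 2.05%. By subunit, the ETS letters were in 7 of 30 large-subunit and 8 of 22 small-subunit promoters, and the YY1 letters in 4 and 5. Of the 7 genes higher at P28, 3 held the ETS letters, 1 the NRF1 letters and 0 the YY1 letters, beside 12, 3 and 8 of the 44 whose ages overlapped. These matches describe letters in a window, and binding was not measured.

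A large-subunit and a small-subunit gene start from the ends of 1 stretch of sequence. Mrpl46, of the central protuberance of the large subunit, and Mrps11, the counterpart of bacterial S11, start 234 bases apart on opposite strands in RefSeq, facing away from each other. The 233 bases between their starts (chr1:142117031-142117263, GRCr8, read on the strand of Mrps11) held 0 matches to the 3 motifs and are shown because they lie before both genes. A YY1 match of Mrpl46 lay after its start, outside these bases, and the promoter window of Mrps11 held no match.
Mrpl46 and Mrps11: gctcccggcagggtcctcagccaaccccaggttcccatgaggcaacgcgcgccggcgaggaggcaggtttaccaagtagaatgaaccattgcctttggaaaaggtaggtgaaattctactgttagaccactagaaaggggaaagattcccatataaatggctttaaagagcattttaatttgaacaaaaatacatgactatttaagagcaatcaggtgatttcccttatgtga

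Mrpl46 lay at 95.6, 56.9, 38.9 and 43.4 CPM in the P18 animals and 47.0, 53.1, 31.9 and 44.9 CPM in the P28 animals, and Mrps11 at 49.7, 32.3, 52.2 and 57.6 and 64.0, 42.1, 51.0 and 53.3 CPM. Mrpl46 was highest in P18 replicate 1 (log2 fold change -0.41 ± 0.34; -0.069 without that library), and the ages overlapped for Mrps11 (0.13 ± 0.29; edgeR adjusted p = 0.642 and 0.885). The difference between the 2 genes was not tested.

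Among large-subunit proteins with a role at the elongation factor stalk, Mrpl12, which also binds the mitochondrial RNA polymerase, lay at 226, 162, 160.1 and 149.9 CPM in the P18 animals and 232, 214, 193 and 271 CPM in the P28 animals. Only P18 replicate 1 reached into the P28 range (log2 fold change 0.38 ± 0.20, edgeR adjusted p = 0.422). Mrpl10, at the base of that stalk, ranged widely, at 54.2, 29.6, 61.4 and 51.0 and 103, 63.2, 20.4 and 17.7 CPM, with P28 replicates 1 and 3 at 103 and 20.4 CPM. Its log2 fold change of 0.06 ± 0.52 had no stable sign (-0.53 to 0.34 leaving out 1 library).

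At the exit of the peptide tunnel, Mrpl23 lay at 152 ± 8.15 CPM in the P18 animals and 183 ± 29.4 CPM in the P28 animals (SD, n = 4 per age), and 3 of the 4 P28 libraries stood above every P18 library (log2 fold change 0.26 ± 0.19; 0.15 without P28 replicate 3). Mrpl45, which holds the ribosome to the inner membrane, lay at 70.5 ± 21.7 and 88.6 ± 16.7 CPM (0.33 ± 0.28; 0.16 without P18 replicate 3, 0.50 without P18 replicate 2 and 0.21 without P28 replicate 4). Mrpl17, also near the exit, had lower P28 levels, at 359.6, 388, 381 and 332 CPM and 230.4, 319.9, 347 and 207 CPM. P28 replicates 1, 2 and 4 lay below every P18 library and replicate 3 within their range (log2 fold change -0.40 ± 0.20, edgeR adjusted p = 0.395).

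Lower fold changes in the large subunit were also found for Mrpl3, which reaches towards the peptidyl transferase centre, at 58.5, 70.3, 86.2 and 106 CPM in the P18 animals and 52.4, 70.4, 31.2 and 58.7 CPM in the P28 animals (log2 fold change -0.59 ± 0.31, edgeR adjusted p = 0.409). Mrpl44, which has a ribonuclease III fold, lay at 38.9 ± 11.2 and 28.5 ± 6.60 CPM and Mrpl42 at 61.9 ± 7.69 and 49.3 ± 8.03 CPM (log2 fold changes -0.45 ± 0.37, or -0.24 without P18 replicate 1, and -0.33 ± 0.26). The ages overlapped for these 3 genes.

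In the small subunit the lowest fold changes were those of Mrps27, an RNA-binding pentatricopeptide repeat protein, and Mrps2, the counterpart of bacterial S2. Mrps27 lay at 18.8, 35.3, 40.6 and 29.4 CPM in the P18 animals and 7.75, 8.36, 38.2 and 2.91 CPM in the P28 animals, so that 3 of 4 older animals lay below all younger ones and P28 replicate 3 among the highest of them. Its log2 fold change was -1.11 ± 0.70 (edgeR adjusted p = 0.51) and -2.28 without P28 replicate 3 (edgeR adjusted p = 0.169). Mrps2 lay at 17.8, 32.8, 51.9 and 26.0 and 9.57, 21.6, 12.2 and 22.1 CPM (log2 fold change -0.98 ± 0.50, edgeR adjusted p = 0.4), with P28 replicates 1 and 3 below all P18 libraries.

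The 3 Mrps18 genes encode relatives of the same bacterial protein, S18. Mrps18c lay higher at P28 with no overlap, as above. Mrps18b lay at 69.8, 61.2, 59.6 and 56.3 CPM in the P18 animals and 68.2, 33.4, 50.3 and 26.0 CPM in the P28 animals (log2 fold change -0.47 ± 0.33, edgeR adjusted p = 0.562; -0.28 without P28 replicate 4 and -0.75 without P28 replicate 1), and Mrps18a had a log2 fold change of -0.30. None of the 3 passed the test over all genes, and a difference among them was not tested.

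Higher fold changes in the small subunit with overlapping libraries were found for Mrps22, a mitochondria-specific protein mutated in inherited mitochondrial disease, at 12.8, 16.3, 27.0 and 17.7 CPM in the P18 animals and 32.5, 23.8, 24.1 and 52.6 CPM in the P28 animals, highest in P28 replicate 4 (log2 fold change 0.85 ± 0.45; edgeR adjusted p = 0.425; 0.54 without that library). Mrps12, the counterpart of the S12 protein of the bacterial decoding site, lay at 126, 106, 59.3 and 78.4 and 141, 98.5, 136 and 139 CPM, and P28 replicate 2 alone of the older animals fell within the P18 range (0.48 ± 0.26; 0.30 without P18 replicate 3). Mrps26 and Mrps5 had log2 fold changes of 0.45 ± 0.25 and 0.58 ± 0.35, and Mrps34 one of 0.41 ± 0.25 (edgeR adjusted p from 0.439 for Mrps12 to 0.494 for Mrps5). Each of these 3 was smaller without 1 library, at 0.24 for Mrps26 (without P28 replicate 2), 0.33 for Mrps5 (without P18 replicate 2) and 0.27 for Mrps34 (without P28 replicate 3).

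Several genes were measured closely and showed small differences. Mrps14 lay at 106 ± 13.4 CPM in the P18 animals and 118 ± 11.7 CPM in the P28 animals (SD, n = 4 per age), and Mrps24, the counterpart of bacterial S3, at 105 ± 6.82 and 113 ± 15.9 CPM. Their log2 fold changes were 0.15 ± 0.20 and 0.11 ± 0.20; that of Mrps24 was -0.027 without TMM factors, and 0.022 (without P28 replicate 3) to 0.17 (without P28 replicate 4) with 1 library left out. That of Mrps14 was 0.085 without P18 replicate 4 and 0.087 without P28 replicate 2. Mrps16, the counterpart of bacterial S16, had a log2 fold change of -0.21 ± 0.24 (-0.094 without P28 replicate 4, -0.12 without P18 replicate 1 and -0.34 without P28 replicate 1). At the other end, Mrps10 had 0 counts in P18 replicates 1 and 2, and 0, 0, 1.20 and 9.06 CPM in the P18 animals and 13.7, 14.8, 0.163 and 0.416 CPM in the P28 animals. Its fold change (1.51 ± 1.87) and those of Mrpl1 (-0.51 ± 1.39) and Mrpl43 (-0.07 ± 0.92) carry the largest errors of the 66. Mrps36 keeps its ribosomal name although its protein is now assigned to the alpha-ketoglutarate dehydrogenase complex, and it lay at 40.9 ± 5.92 and 50.4 ± 6.87 CPM (0.30 ± 0.28). Mrps10, Mrpl1, Mrpl43, Mrps36, Mrps11 and the lower-case genes were singled out after their values were seen.

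Genes with a bacterial counterpart and genes particular to mitochondria differed in median within the large subunit. Of 23 large-subunit genes with a counterpart 18 lay above 0, with a median log2 fold change of 0.20, and of 15 particular to mitochondria 7 did, with a median of -0.068. In the small subunit 10 of 15 genes with a counterpart lay above 0 (median 0.13) and 8 of 13 others (median 0.28). Those others hold Mrps18a and Mrps18b, although both are relatives of bacterial S18. They also hold Mrps30, which like Mrps18a is placed in the large subunit by structure. Mrps36 (log2 fold change 0.30), now assigned to the alpha-ketoglutarate dehydrogenase complex, is among them too and is counted in the small-subunit values given here. The class medians depend on these assignments. The order of the classes thus differed between the subunits, and it was not tested.

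The 3 large-subunit genes written in lower case had higher means at P28. The gene mrpl9, with the largest difference, lay at 52.4, 82.7, 54.4 and 65.9 CPM in the P18 animals and 119, 151, 144 and 112 CPM in the P28 animals with no overlap (log2 fold change 1.04 ± 0.23, edgeR adjusted p = 0.0603). For mrpl24 and mrpl11 the log2 fold changes were 0.57 ± 0.26 and 0.52 ± 0.35 (adjusted p by edgeR, 0.342 and 0.545); for mrpl24 the ages did not overlap. With these 3 the large subunit had a median of 0.20 over 41 genes, and 0 were called (over all genes, 0.936% were).

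Mitoribosomal proteins also go by other names. Of 7 such genes 0 were called (over all genes, 0.936% were), 6 lay above 0, and the median log2 fold change was 0.12. Mrp63 lay at 77.6 ± 6.73 CPM in the P18 animals and 125 ± 26.3 CPM in the P28 animals with no overlap (0.69 ± 0.22, edgeR adjusted p = 0.169), and Chchd1 had a log2 fold change of 0.51 ± 0.24. Dap3, the GTP-binding protein of the small subunit, and Ict1, which frees stalled peptides, had values of 0.01 ± 0.30 and 0.00 ± 0.26.

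Genes that build and serve the mitoribosome held 0 calls in either direction: 0 of 21 assembly factors, 0 of 13 translation factors, 0 of 16 aminoacyl-tRNA synthetase genes and 0 of 22 genes of mitochondrial transcription and RNA handling. In the same fit only 0.936% of the 10472 genes tested were called, so lists of this size would hold few calls at that share. The median log2 fold changes of these lists were, in the same order, 0.22, 0.08, -0.11 and -0.11. Dhx30, a helicase of mitoribosome assembly, lay at 64.2, 48.7, 44.9 and 36.8 CPM in the P18 animals and 110.1, 76.9, 98.3 and 119.6 CPM in the P28 animals with no overlap (log2 fold change 1.06 ± 0.26, edgeR adjusted p = 0.0842). Tfb1m, a ribosomal RNA methyltransferase of the small subunit, differed by 0.94 ± 0.42 on the log2 scale (edgeR adjusted p = 0.325).

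Tefm, the elongation factor of mitochondrial transcription, lay at 13.6, 14.3, 17.8 and 25.6 CPM in the P18 animals and 0.998, 4.28, 1.55 and 3.54 CPM in the P28 animals, all 4 older animals below the younger ones (log2 fold change -2.79 ± 0.79, edgeR adjusted p = 0.119). Grsf1, a protein of mitochondrial RNA granules, lay at 109 ± 25.2 and 61.1 ± 18.5 CPM, also with no overlap (-0.84 ± 0.29, edgeR adjusted p = 0.202). Among translation factors the lowest p values were those of Guf1 and Mtfmt (log2 fold changes -0.72 ± 0.48 and 0.60 ± 0.48), and among synthetase genes those of Wars2 and Qrsl1 (-2.32 ± 1.23 and -1.31 ± 0.78; edgeR adjusted p of these 4 from 0.424 to 0.626).

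Of 74 nuclear genes of the respiratory chain and ATP synthase, 1 rose (Cox7b, from 144 ± 16.2 to 281 ± 56.5 CPM; edgeR adjusted p = 0.0464) and 1 fell (Sdha, from 203 ± 18.1 to 104 ± 6.34 CPM; adjusted p = 0.0314), with a median log2 fold change of 0.19. Over all genes tested, 0.936% were called in that fit (0.516% higher and 0.42% lower). Cox7b is a subunit of cytochrome c oxidase and Sdha the flavoprotein of complex II, which has no subunit from the mitochondrial genome. Both were also called by the DESeq2 Wald test (adjusted p = 0.000768 for Cox7b and 0.000136 for Sdha) and by limma with voom (0.0157 and 0.0165). With 1 library left out the fold changes stayed between 0.85 and 1.08 for Cox7b and between -0.93 and -1.02 for Sdha, while the edgeR calls depended on the library, as did the number of calls over all genes. Cox7b kept its call only without P28 replicate 4 (edgeR adjusted p 0.0598 to 0.173 without any other library), and lost it without TMM factors (0.0733). Sdha kept its call without P28 replicate 2 or P28 replicate 4 and had an edgeR adjusted p of 0.0503 to 0.128 without any other library. With the replicate block both lay at 0.0968 and 0.0969. Of 77 cytosolic ribosomal protein genes 0 were called, 70 lay above 0 and the median was 0.47, higher than in either mitoribosomal subunit. The difference between the 2 kinds of ribosome was not tested.

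**Figure D4:**
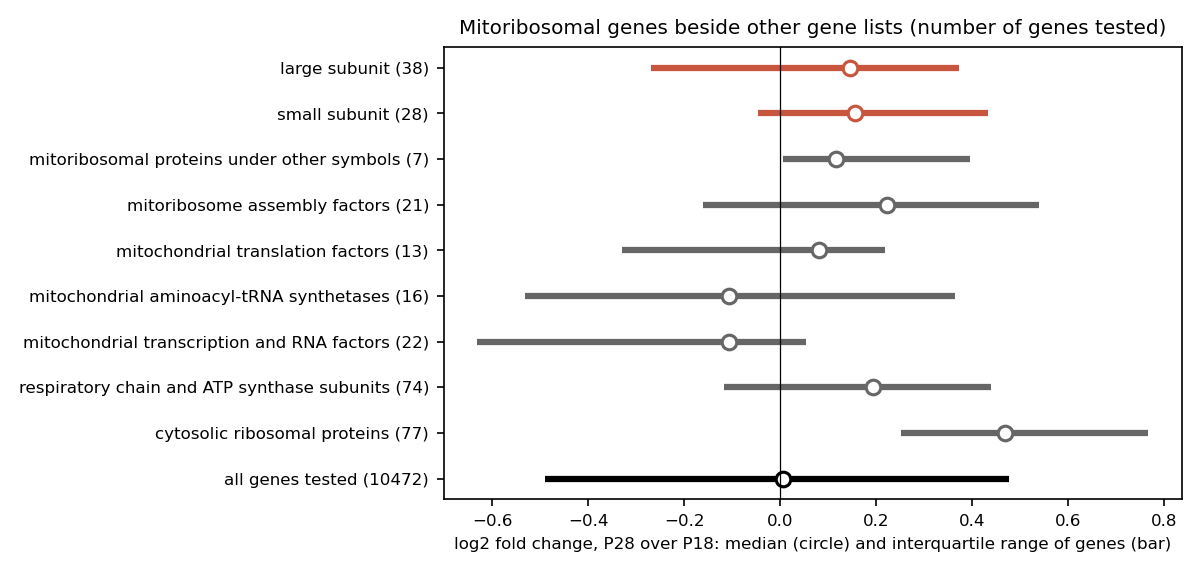
Median log2 fold change (circles, x axis, P28 over P18) and interquartile range (bars) of each gene list, with the number of genes tested in parentheses. Both mitoribosomal subunits lie near 0.15, between all genes tested (0.01) and cytosolic ribosomal proteins (0.47).

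Some values rest on genes whose reads could be shared. In the RefSeq table (GRCr8, used here for neighbours only), 13 of 65 matched genes overlap another protein-coding gene, among them Mrpl10 (Lrrc46), Mrpl14 (Tmem63b), Mrps12 (LOC103689966) and Mrps2 (Pierce1). The table also lists pseudogenes or copies named after Mrpl54, Mrpl32, Mrpl17, Mrpl42, Mrps18c and Mrps18b, among others. The strand setting of the counting is not given in the sources used here, so reads of overlapping genes on opposite strands may not have been told apart, and values of these genes are uncertain to that extent.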

How the data were processed

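The deposited values are raw read counts, 1 row per gene symbol. The tools named for making them, per the submitters' processing notes and with no order or role stated, are edgeR 3.16.5, HTSeq 0.9.1 and STAR 2.5.3a, with the rat build rn6. The 8 cervical libraries were analysed, and 40 other sample columns of the table were not used. Genes passing edgeR's expression filter (minimum count 10) were fitted with the quasi-likelihood test (edgeR 4.0.16, R 4.3.3), P28 against P18, with TMM scaling and Benjamini-Hochberg adjustment over all 10472 genes; called means an adjusted p under 0.05. Genes were matched by symbol and lists by fixed names. The members and lists were chosen with earlier results of these data known. The function was tested on simulated counts.

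Named with values were, in each subunit, the 5 genes with the lowest p in each direction, the 3 with the smallest SE, 14 genes picked by role, and the 2 lowest p in each pathway list, of which some are not reported here. Mrps6 and transcripts of the mitochondrial genome were not analysed here. Alternatives were DESeq2 1.42.0 size factors and its Wald test, limma 3.58.1 with voom, other filters, a replicate block and leaving out each library; scaling by library totals, adding lower-case symbols and counts of separated ages were added after seeing the data. Replicate numbers follow the order of the samples within each age, and the library titles hold no such number. Same-numbered animals of the 2 ages are different animals, and their deviations correlated at -0.020 to 0.0019, so the numbers were not taken as pairs. The replicate block uses this numbering. P-values measure the spread between 4 animals per age. Counts come from amplified cDNA without molecular identifiers named in the labels, so depth covers counting error only.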

Additional observations from a re-analysis of the deposited data

Results flagged for a closer look

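In 4 of the 66 sets of libraries checked (6.06%, where independent sets would give about 1 in 20 by chance), 1 animal stood far from the 3 others of its age. These sets are not the 66 kept genes. They are the libraries of 1 age for each of the 29 named genes and for the summed levels and their ratio. Many of these genes were picked by low p or small SE in these data, and the sums share genes. The 2 rates are therefore not a test. Mrps23 read 64.4 CPM in P18 replicate 3, against 86.6 to 87.8 CPM in the other P18 animals. Mrps12 read 98.5 CPM in P28 replicate 2, against 136 to 141 CPM in the others. Mrps27 read 38.2 CPM in P28 replicate 3, against 2.91 to 8.36 CPM in the others. Mrpl12 read 226 CPM in P18 replicate 1, against 149.9 to 162 CPM in the others. The 4 values fell in 4 different libraries.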

How the results depend on the processing

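No large-subunit gene was called in the edgeR fit to all 8 libraries. In the alternatives 0 to 1 were called. That 1 was Mrpl54, called with the DESeq2 Wald test, with voom and by edgeR without P28 replicate 4. The small subunit stayed at 0 in every alternative. The median log2 fold change ran from 0.12 to 0.26 in the large subunit when 1 library was left out, and from 0.14 to 0.24 (without P18 replicate 4) in the small. Without TMM factors the medians were 0.0070 (large) and 0.026 (small), the ratios of summed CPM 1.03 and 1.01, and the genes with separated ages 2 lower in the large subunit (0 with TMM), and 1 higher and 2 lower in the small (2 and 1 with TMM); on that scale the median of all genes moved from 0.01 to -0.13. With the replicate block 0 genes of either subunit were called, with medians of 0.15 and 0.16, and calls over all genes went from 54 higher and 44 lower to 16 and 10; no animal correlated best with its own number. Over all genes, the DESeq2 Wald test called 297 and 263, voom 175 and 132, and fits without 1 library from 4 and 5 (P18 replicate 2) to 110.0 and 105 (P28 replicate 4). Of 29 named mitoribosomal genes 27 kept their direction in all 15 alternatives. Mrpl10 turned to -0.27 with the replicate block, -0.043 without TMM factors and -0.53 to 0.34 without 1 library, and Mrps24 to -0.027 without TMM factors; the cause was not tested. Mrps10 and Mrpl1 had under 10 counts in 4 libraries each, and those of Mrps10 did not follow depth (0 counts in the deepest library).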
